A study of Homo sapiens with 6 samples.

Results

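Vimentin, nestin and the keratins of simple epithelia were followed in MCF-10A cells that overexpressed MBD2. MCF-10A cells are breast epithelial cells that are immortal but not transformed, and MBD2 is a protein that binds methylated DNA and recruits a repressor complex. The genes were KRT7, KRT8, KRT18, KRT19, KRT81, VIM and NES, and every probe set annotated with 1 of these symbols and no other was kept. That rule found 12 probe sets for 6 of the 7 genes, out of 41091 probe sets with a single symbol. KRT81 is not analysed here, because no probe set carried its symbol alone in the annotation used. Total RNA had been hybridized to 3 Affymetrix Human Genome U133 Plus 2.0 arrays of cells given an MBD2 lentivirus and to 3 arrays of control cells, all grown in the same serum-free mammary epithelial medium. The virus was packaged in HEK293 cells, a human embryonic kidney line. The treatment label reads MBD2 transfection, whereas the study's methods describe infection with the lentivirus. The labels also describe the control as cells without infection and the replicates as technical, whereas the methods describe an empty virus and biological replicates. Whether separate cultures lay behind the arrays is not settled by these sources, and every p-value below is set against a spread among arrays that may be technical.

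Intermediate filaments are the ropes of the cytoskeleton. In simple epithelia they are built from pairs of 1 type I and 1 type II keratin, of which KRT8 with KRT18 is the founding pair, KRT7 is a further type II chain of ducts and glands, and KRT19 is a small type I chain. Mesenchymal cells build filaments from vimentin instead, nestin joins vimentin filaments in progenitor cells, and a switch from keratin towards vimentin is the textbook cytoskeletal sign of an epithelial-mesenchymal transition. MCF-10A cells belong to the basal type, and their defining keratins were present on every array. KRT5 had log2 values of 11.49 to 12.60 on MBD2 arrays and 12.71 to 13.47 on control arrays, and KRT14 had 13.37 to 13.98 and 14.00 to 14.37 in the same order. Of the simple keratins, KRT7, KRT8 and KRT18 were well above the background of the arrays, but KRT19 was not far from it, so the label of a simple epithelial set fits 3 of the 4 measured keratins. By the RefSeq gene table, KRT7, KRT8 and KRT18 lie on chromosome 12, where the annotated spans of KRT8 and KRT18 overlap, KRT19 lies on chromosome 17, VIM on chromosome 10 and NES on chromosome 1.

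The transcript of MBD2 itself was 12.17, 11.72 and 12.50 on MBD2 arrays 1, 2 and 3, against 8.92, 9.03 and 9.68 on control arrays 1, 2 and 3. The log2 difference, MBD2 minus control, was 2.92 (SE 0.28, limma adjusted p = 0.0157), and it was -0.08 to 0.11 in the 3 dimmer probe sets of the gene. Those 3 had group means of 3.04 to 4.73. The brightest of them lay above 4.17, the limit used below for values near background, on every array (lowest 4.47). Why they did not show the change was not tested. The adjusted p of the bright probe set was above 0.05 (up to 0.107) without MBD2 array 3 or control array 1 or 2. The arrays of a group were not equally alike. MBD2 arrays 2 and 3 had 148 probe sets more than 2-fold apart and control arrays 1 and 2 had 26. MBD2 array 1 stood apart from the others of its group by 5126 and 5552 probe sets, and control array 3 by 3037 and 3103. The spike-in controls for hybridization averaged 9.94 and 10.01 on MBD2 arrays 2 and 3 and 10.96 to 11.33 on the other 4 arrays. The difference between the 3′ and the 5′ probe set of ACTB, a sign of RNA quality, was 3.44 to 3.93 log2 units on MBD2 arrays and 3.62 to 4.57 on control arrays. For GAPDH the same difference was 1.49 to 1.84 on MBD2 arrays and 1.83 to 2.52 on control arrays. The part of these technical differences in the results below was not tested.

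VIM lay above all controls on the MBD2 arrays and NES did not. The 250 bases before the start of each gene are shown to set this pair of filament genes side by side, taken from RefSeq (GRCh38.p14) and written 5′ to 3′. Capitals mark CG dinucleotides, the sites that carry the methylation MBD2 binds. The window of VIM is chr10:17227991-17228240 on the + strand and that of NES is chr1:156677408-156677657 on the - strand.
VIM: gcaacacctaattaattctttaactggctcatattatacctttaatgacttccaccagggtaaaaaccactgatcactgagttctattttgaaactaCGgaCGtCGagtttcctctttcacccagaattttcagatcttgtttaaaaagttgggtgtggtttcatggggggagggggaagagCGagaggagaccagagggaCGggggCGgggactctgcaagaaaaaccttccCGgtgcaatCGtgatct
NES: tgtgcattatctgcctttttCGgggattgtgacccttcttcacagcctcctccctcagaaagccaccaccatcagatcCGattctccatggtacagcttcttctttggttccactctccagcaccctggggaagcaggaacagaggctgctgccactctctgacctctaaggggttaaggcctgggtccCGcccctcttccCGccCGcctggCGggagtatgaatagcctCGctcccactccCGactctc
Each window held 8 CG dinucleotides, and 56.3% of the 35114 windows of the same length in the table held at least as many. CACCTG, read on either strand, is an E-box that ZEB and SNAI factors bind. It was in neither window and in 17.5% of all windows. The window of KRT8, whose start in the table lies inside the annotated span of the gene, held 1 CG and no CACCTG. Methylation was not measured on these arrays. KRT7, KRT18 and KRT19 had no window.

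VIM, the filament protein of mesenchymal cells, showed the largest difference of the 6 measured genes. Its bright probe set had log2 values of 11.84, 12.78 and 13.16 on MBD2 arrays 1, 2 and 3, against 9.31, 9.18 and 6.97 on control arrays 1, 2 and 3. The lowest MBD2 array lay 2.53 log2 units above the highest control, and control array 3 lay more than 2 log2 units below the other controls. The means were 12.59 ± 0.68 in MBD2 cells and 8.49 ± 1.31 in control cells (SD, n = 3 each). The log2 fold change of 4.11 (standard error, SE, 0.71, 95% interval 2.38 to 5.84), or 17.2-fold, was the 3rd highest of all 41091 probe sets, yet at an adjusted p of 0.0554 in limma it did not pass the threshold. A probe set was called at an adjusted p under 0.05, with Benjamini-Hochberg adjustment over all probe sets, and a fold change of at least 1.5. Control array 3 both enlarged the change and widened the spread: without it the log2 fold change was 3.35 and the adjusted p 0.0355. Without MBD2 array 1 they were 4.48 and 0.0184, and with any other array left out the adjusted p lay between 0.159 and 0.235. MBD2 array 1 taken alone lay 3.36 log2 units above the control mean, which control array 3 lowered, and 2.53 above the highest control.

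The second probe set of VIM differed in the same direction at a much lower level. It had 4.32, 4.32 and 4.80 on MBD2 arrays, against 3.59, 3.46 and 3.75 on control arrays, which is a log2 fold change of 0.88 (SE 0.17, adjusted p = 0.0752). The groups did not overlap. All 3 control values were near background, taken as less than 0.5 log2 units above the highest probe set for TrpnX, a bacterial transcript (3.67). Background may therefore limit how large a change this probe set can show, which was not tested. RNA came from whole cultures, in which more cells with a transcript and more transcript per cell cannot be told apart.

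**Figure D1:**
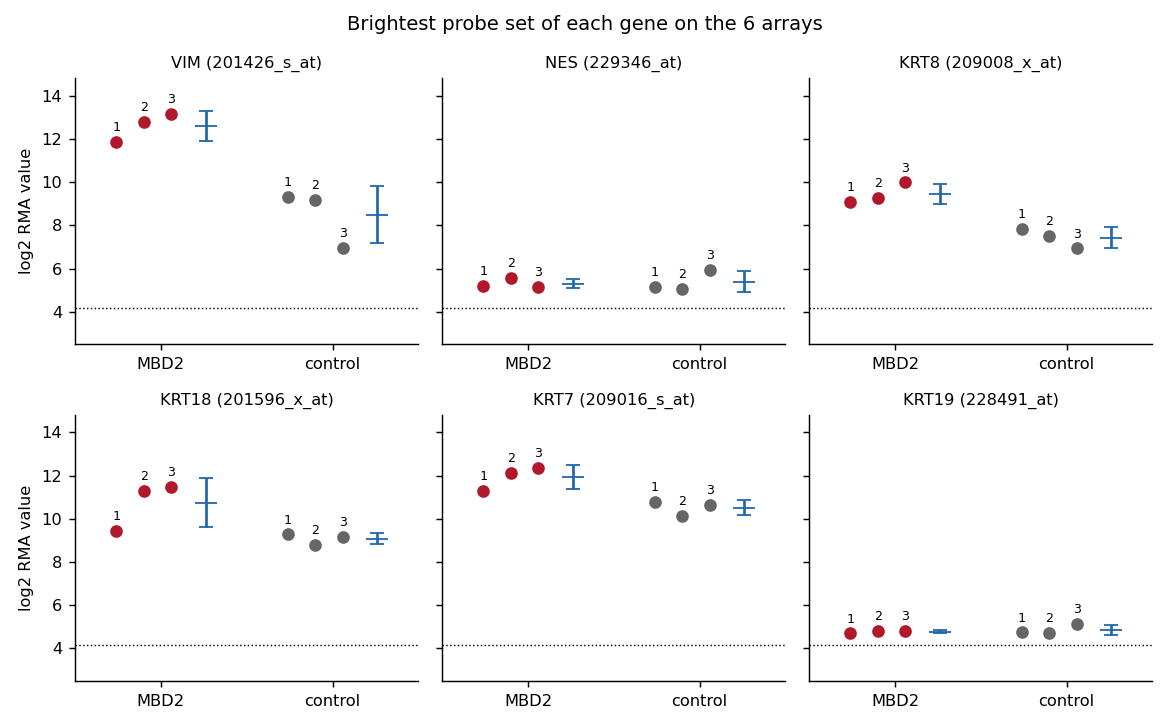
Log2 RMA values of the brightest probe set of VIM, NES, KRT8, KRT18, KRT7 and KRT19 on MBD2 arrays (red, left) and control arrays (grey, right), numbered by replicate, with the mean and SD of each group in blue (n = 3) and a dotted line at 4.17, the limit for values near background. VIM, KRT8, KRT18 and KRT7 lie higher on all MBD2 arrays than on any control array, whereas NES and KRT19 lie between 4.70 and 5.94 in both groups.

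KRT8 was the only one of the 12 probe sets that passed the test. This type II keratin is the partner of KRT18 in the filaments of simple epithelia. Its probe set had log2 values of 9.09, 9.29 and 9.99 on MBD2 arrays 1, 2 and 3, against 7.85, 7.53 and 6.94 on control arrays 1, 2 and 3. The groups were 1.24 log2 units apart at their nearest values, and MBD2 array 1 lay close to array 2. The means were 9.45 ± 0.47 in MBD2 cells and 7.44 ± 0.46 in control cells (SD, n = 3 each), a 4.04-fold increase (log2 fold change 2.02, SE 0.33, limma adjusted p = 0.0478). The call was close to the threshold. The adjusted p was 0.0149 without MBD2 array 1, but 0.148, 0.163, 0.147, 0.187 and 0.0656 without MBD2 array 2 or 3 or control array 1, 2 or 3, while the log2 fold change stayed between 1.75 and 2.22.

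KRT18, the type I partner, did not follow KRT8 on every array. Its probe set had 9.46, 11.30 and 11.49 on MBD2 arrays 1, 2 and 3, against 9.28, 8.80 and 9.18 on control arrays 1, 2 and 3. MBD2 arrays 2 and 3 were more than 2 log2 units above the highest control, and MBD2 array 1 was only 0.18 above it. The log2 fold change was 1.66 (SE 0.55, 95% interval 0.31 to 3.01, adjusted p = 0.221). Without MBD2 array 1 it was 2.31 with an adjusted p of 0.00391, and MBD2 array 1 alone differed by 0.37 from the control mean. On that array KRT8 stood 1.65 log2 units above its control mean, so the partners differed most there. Both probe sets carry the ending _x_at, which marks probes that may also match other sequences, and both genes have processed pseudogenes, so part of either signal may come from near-identical copies.

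KRT7, a type II keratin of ducts and glands, was brighter on the MBD2 arrays in 1 of its 4 probe sets. The brightest had log2 values of 11.30, 12.12 and 12.36 on MBD2 arrays 1, 2 and 3, against 10.78, 10.12 and 10.64 on control arrays 1, 2 and 3. As for KRT18, the MBD2 array nearest to the controls was array 1, here by 0.52 log2 units. The log2 fold change was 1.41 (SE 0.32, adjusted p = 0.105), and without MBD2 array 1 it was 1.72 with an adjusted p of 0.0102. The other probe sets of KRT7 were dimmer, with group means of 3.66 to 6.75, and their groups overlapped. Their log2 fold changes were 0.31, -0.14 and -0.19, with adjusted p-values of 0.409, 0.55 and 0.546, and the dimmest was near background on all 6 arrays.

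KRT19 and NES stayed low. The brighter probe set of KRT19, a type I keratin that lacks the tail of its relatives, had 4.70, 4.82 and 4.83 on MBD2 arrays, against 4.75, 4.70 and 5.14 on control arrays. The groups overlapped, with a log2 fold change of -0.08 (95% interval -0.43 to 0.28, adjusted p = 0.842). The other was near background on every array (3.49 to 3.95) and differed by -0.16. NES, which encodes a filament protein of neural and muscle progenitors, had 5.19, 5.55 and 5.17 on MBD2 arrays and 5.16, 5.07 and 5.94 on control arrays with its brighter probe set. Control array 3 was the highest of the 6. The log2 fold change was -0.09 (95% interval -0.73 to 0.56, adjusted p = 0.904), and it was -0.06 (-0.35 to 0.23, adjusted p = 0.851) with the dimmer one. These intervals lie below the log2 fold change of 4.11 of the bright VIM probe set. The interval of the dim VIM probe set (0.46 to 1.30) does so too, so probe sets this dim cannot exclude a large change of the transcript. That of the brighter NES probe set does not exclude a change of 1.5-fold either. Without control array 3 the signs of the brighter KRT19 probe set and of both NES probe sets turned, to 0.06 for KRT19 and 0.19 and 0.02 for NES.

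**Figure D2:**
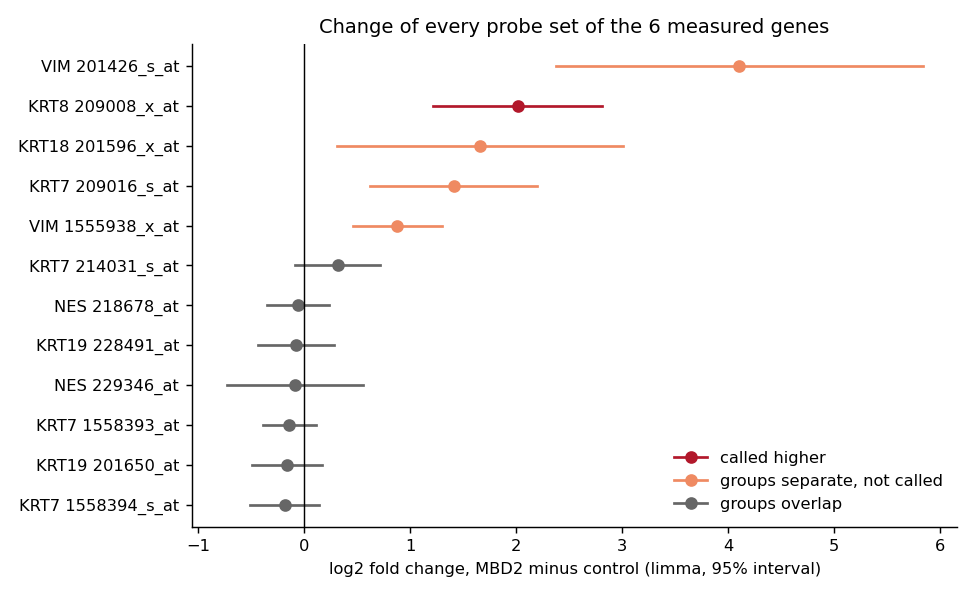
Log2 fold change, MBD2 minus control, of the 12 probe sets with the 95% interval from limma, coloured by call and by overlap of the groups. KRT8 was called higher, 4 other probe sets of VIM, KRT18 and KRT7 had separate groups without passing the test, and the remaining 7 overlapped around 0.

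Of the 12 probe sets, 1 was called higher, against 0.898% of all 41091 probe sets, and 0 were called lower, against 0.978%. Before adjustment 5 had a limma p under 0.05 with higher values, against 8.49% of all probe sets, and 0 with lower values, against 8.05%. On all 3 MBD2 arrays 5 probe sets were higher than on any control array, where 10.4% of all probe sets were, and 0 were lower throughout, where 12.3% were. By the fold rule of the methods, read as at least 1.5 times or at most 0.5 times the control mean on each MBD2 array, 4 probe sets were higher and 0 lower. The shares of all probe sets were 2.99% and 1.4%. These 4 were those of KRT8 and VIM and the bright one of KRT7. Without MBD2 array 1, limma called 5 of the 12, against 8.8% of all probe sets, and these were the bright probe sets of KRT7, KRT8, KRT18 and VIM and the dim one of VIM. The same 5 were called without both MBD2 array 1 and control array 3, when 15.5% of all were called. That comparison rests on the 2 nearly identical arrays of each group.

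The log2 fold changes of VIM and the keratins were then compared within arrays, over 5 pairs of brightest probe sets. Of these genes only KRT8 had passed the test. The log2 fold change of VIM was above that of KRT7 by 2.70, that of KRT8 by 2.09, that of KRT18 by 2.44 and that of KRT19 by 4.18 log2 units. In each of these pairs the 3 MBD2 arrays lay above the 3 control arrays (exact permutation test, two-sided, p = 0.1 for each, the smallest that 3 against 3 arrays allow, and 0.125 adjusted over the 5 pairs). Leaving out 1 array at a time gave 1.58 to 3.24 for the first 3 pairs. The spread was in the controls, where the within-array difference of VIM and KRT7 had an SD of 1.45, against 0.13 on MBD2 arrays. KRT8 and KRT18 differed in their change by 0.35 log2 units (exact permutation p = 0.6), and the groups overlapped. Relative to the control mean, the difference of KRT8 and KRT18 was 1.28 on MBD2 array 1 and -0.36 and 0.15 on arrays 2 and 3, and without MBD2 array 1 the change of KRT18 was the larger by 0.11.

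**Figure D3:**
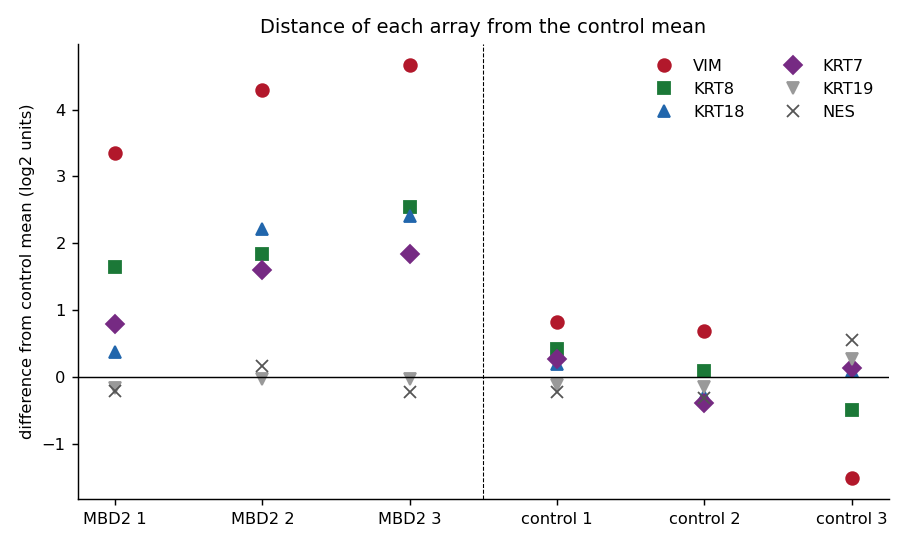
Difference of each array from the control mean, in log2 units, for the brightest probe sets of VIM, KRT8, KRT18, KRT7, KRT19 and NES, with MBD2 arrays left of the dashed line and control arrays right of it. VIM stands highest on every MBD2 array and lowest on control array 3, and on MBD2 array 1 KRT18 lies at 0.37 beside 1.65 for KRT8.

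Among the proteins that tie filaments to junctions and to each other, PPL and DSP were lower in MBD2 cells. Each gene is given here by its brightest probe set, and among all 19775 genes 1.04% were called higher and 1.28% lower by that probe set. Of 10 linker genes, 0 were higher, 2 were lower and 8 did not pass, with a median log2 fold change of -0.25 against -0.02 for all genes. At an unadjusted limma p under 0.05, 5 linkers were lower and 1 was higher, against 9.79% and 8.83% of all genes. PPL, which encodes periplakin, a plakin of desmosomes and the cornified envelope, had 6.69, 7.06 and 6.66 on MBD2 arrays, against 9.64, 9.28 and 9.57 on control arrays (log2 fold change -2.69, SE 0.16, limma adjusted p = 0.00537, and 0.0525 without control array 1). DSP encodes desmoplakin, which anchors keratin filaments at desmosomes. It had 12.67, 12.68 and 12.73 on MBD2 arrays and 13.72, 13.81 and 13.45 on control arrays (log2 fold change -0.97, adjusted p = 0.0292). The call of DSP was lost without MBD2 array 2 or 3 or control array 1 or 2, with adjusted p-values of 0.119 to 0.15. EPPK1, which encodes epiplakin, a keratin-binding plakin, was below all controls on the 3 MBD2 arrays without passing (-2.02, adjusted p = 0.169, and 0.0118 without MBD2 array 1). Its other 4 probe sets gave -2.12 to 0.02. PLEC encodes plectin, which crosslinks vimentin and keratin filaments, and it lay above all controls with a log2 fold change of 1.10 (adjusted p = 0.209). Without MBD2 array 1 it was called too, with an adjusted p of 0.0107 and a log2 fold change of 1.48.

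Among the other filament genes 0 were called in either direction. Of 14 type III and IV filament proteins and lamins, 3 had an unadjusted limma p under 0.05 with higher values in MBD2 cells and 0 with lower values. Among all genes 8.83% and 9.79% did so. The lens filament gene BFSP1 had a log2 fold change of 0.77 (adjusted p = 0.192) and LMNA, which encodes the A-type lamins of the nuclear envelope, had 0.72 (adjusted p = 0.266). DES and GFAP, the muscle and astrocyte relatives of vimentin, had -0.03 each, with adjusted p-values of 0.95 and 0.938. Of 6 measured keratins of other simple epithelia and of hair, 0 passed at an unadjusted p under 0.05, and their log2 fold changes lay between -0.25 for KRT80 and -0.01 for KRT84. The value of KRT80 rested on MBD2 array 1. It had 5.35, 7.10 and 7.36 on MBD2 arrays 1, 2 and 3, against 6.75, 6.67 and 7.15 on control arrays, and without MBD2 array 1 its difference turned to 0.38. That of KRT84, near background on all arrays, turned to 0.05.

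The epithelial genes EPCAM, ESRP1 and CLDN7 were lower and the mesenchymal regulators TWIST1 and ZEB1 were higher in the same cells. Both lists were written with earlier results of these arrays known, so that their direction is no independent evidence. Of 5 measured epithelial genes, 3 passed, each of them lower, and 2 missed the threshold, with a median log2 fold change of -3.12. EPCAM, an epithelial adhesion molecule, had 9.82, 9.77 and 9.79 on MBD2 arrays and 12.96, 13.05 and 12.73 on control arrays, and its adjusted p of 0.00148 remained at most 0.0263 with any 1 array left out. ESRP1, a splicing regulator of epithelia, had a log2 fold change of -4.84 (adjusted p = 0.0055, and 0.0525 and 0.0595 without control array 1 or 2) and CLDN7, a tight junction claudin, had -2.99 (adjusted p = 0.0239, and 0.0863 to 0.129 without MBD2 array 2 or 3 or control array 1 or 2). CDH1, which encodes E-cadherin, had -1.61 (adjusted p = 0.158, and 0.00762 without MBD2 array 1). Of 7 mesenchymal genes, 2 were higher and 5 did not pass, with a median of 1.65. TWIST1, a transcription factor of the mesenchymal program, had 8.07, 8.28 and 8.65 on MBD2 arrays, against 6.69, 6.65 and 6.21 on control arrays (log2 fold change 1.81, adjusted p = 0.0218). ZEB1, a repressor of epithelial genes, had 7.35, 6.73 and 7.12, against 5.75, 5.59 and 5.05 (1.61, adjusted p = 0.0425), with 0.26 to 3.81 in its 3 other, dimmer probe sets. The calls of both were lost without MBD2 array 2 or 3 or control array 1 or 2 (adjusted p of 0.091 to 0.195), and that of ZEB1 also without control array 3 (0.0508).

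**Figure D4:**
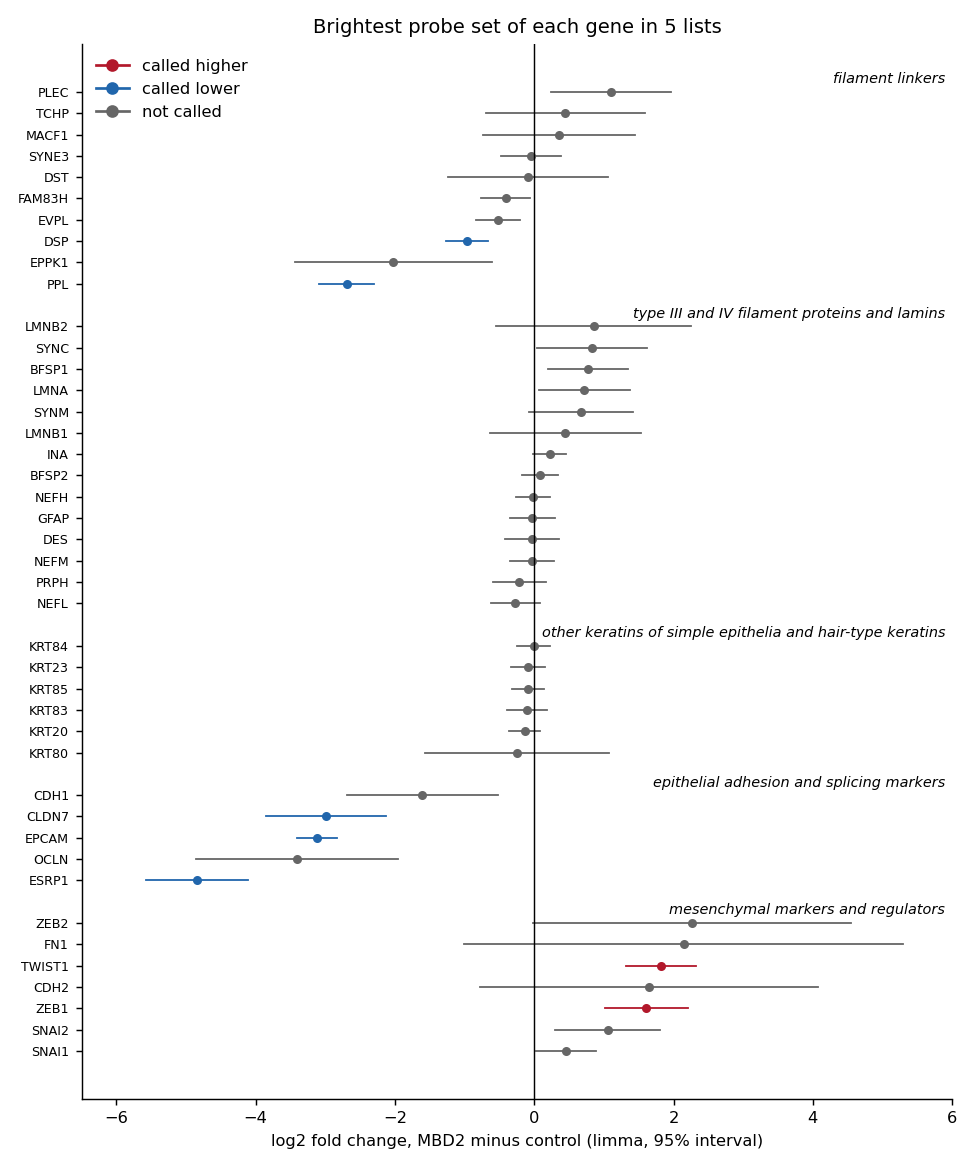
Log2 fold change, MBD2 minus control, with the 95% interval from limma for the brightest probe set of each gene in 5 lists, coloured by call (higher, lower, not called). PPL and DSP among the linkers and ESRP1, EPCAM and CLDN7 among the epithelial genes were called lower, TWIST1 and ZEB1 were called higher, and the other keratins lie between -0.25 and -0.01.

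Markers of other cells were looked at beside VIM, since fibroblasts and HEK293 cells also make vimentin. Of 12 fibroblast genes, 0 were called in either direction (2 had an unadjusted limma p under 0.05, with higher values), and none was near background on all arrays. Their summed signal, on the linear scale, was 29428, 5217 and 7078 on MBD2 arrays 1, 2 and 3, against 8279, 8498 and 1405 on control arrays 1, 2 and 3. The groups overlapped, and control array 3, with the lowest sum, also had the lowest VIM, but MBD2 array 1, with the highest sum, had the lowest VIM of its group. POSTN was the brightest of the 12 on every array but control array 3, so the sums follow POSTN most. The part of fibroblast-like expression in the level of VIM was not tested. Of 5 markers of HEK293 cells, 0 were called (0 in either direction at an unadjusted p under 0.05), with LIN28B, NEFL and NEFM near background on all arrays and sums of 89.7 to 96.0 on MBD2 arrays and 89.2 to 94.6 on control arrays. Of 7 endothelial genes 0 were called (1 had an unadjusted limma p under 0.05, with lower values), with the defining CDH5 and KDR near background on all arrays and sums of 211 to 223 and 214 to 240 on MBD2 and control arrays. Of 5 leukocyte genes 1 was called (1 had an unadjusted limma p under 0.05 with higher values and 1 with lower values), and PTPRC, which encodes the leukocyte antigen CD45, was near background throughout. The gene called was LAPTM5, a lysosomal membrane protein, with a log2 fold change of 2.52 (adjusted p = 0.0129, and 0.0564 to 0.0937 without MBD2 array 2 or 3 or control array 1 or 2). CD14, a co-receptor for bacterial lipopolysaccharide, lay the other way without passing, with 8.27, 6.70 and 6.57 on MBD2 arrays, against 10.07, 9.88 and 10.79 on control arrays (log2 fold change -3.07, adjusted p = 0.0509). The summed signal of the leukocyte genes was 496 to 584 on MBD2 arrays and 1093 to 1919 on control arrays. On control arrays CD14 was by far the brightest of them and carried most of that sum. Of 7 luminal mammary genes 1 was called (2 had an unadjusted limma p under 0.05, with lower values), with sums of 990 to 1703 on MBD2 arrays and 3278 to 3941 on control arrays, and PGR near background. The gene called was MUC1, a mucin, with a log2 fold change of -2.33 (adjusted p = 0.0438). It was also the brightest of the 7 on every control array and weighed most in the control sums. Its call held without MBD2 array 1 (0.00425) and was lost without any other array (0.0525 to 0.184). Of 6 measured basal genes 0 were called (3 had an unadjusted limma p under 0.05, with lower values). These 3 were KRT5 (log2 fold change -1.26, limma adjusted p = 0.167), KRT14 (-0.56, 0.234) and CDH3 (-1.14, 0.263). EGFR had -0.41, and ITGB4 and LAMB3 lay the other way (0.81 and 0.61).

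The genes closest in pattern to each filament gene were found by the root mean square difference over the 6 arrays, each profile with its own mean taken off, among 6380 genes whose values spanned at least 1 log2 unit. For VIM these were IL24, a cytokine (0.45 log2 units), PLCB4, a phospholipase (0.48), and KCNMA1, a potassium channel (0.55), and 2 genes lay within 0.5. Far more genes shared the flatter patterns of the keratins, with 180 within 0.5 of KRT8, 359 of KRT18 and 1176 of KRT7. The nearest to KRT8 were SYT1 (0.05), CDR2 (0.18) and BCAR3 (0.18). PDLIM7 (0.12), CAVIN3 (0.18) and CORO2B (0.18) were nearest to KRT18, and FHL2 (0.14), GNAI2 (0.16) and AIDA (0.16) to KRT7. KRT19 and NES spanned less than 1 log2 unit and were left out. All profiles come from the same 6 arrays, so these distances describe likeness only.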

How the data were processed

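Deposited values were log2 signals after RMA, which the authors used for background correction, quantile normalization and summary over each of 54675 probe sets. All arrays share a median of 5.24, so differences are relative to the bulk of probe sets. The submitters' notes name RMA and affy, with versions not given in the sources used here, and no array test is named in the methods. By the platform annotation 41091 probe sets had 1 symbol, 1801 several and 11721 none, and 62 were array controls. RefSeq's table held 19735 of 19777 Entrez identifiers.

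All 41091 were fitted in R 4.3.3 by limma 3.58.1 (group the sole term, eBayes, Benjamini-Hochberg adjustment, no filter on dim probe sets). Genes, lists and alternatives were chosen with earlier results of these data known. By rule the text names every probe set of the members, MBD2, GAPDH, ACTB, called genes of each list, CDH1 and the 3 genes nearest in pattern to each member. Other list genes, KRT5 and KRT14 included, were chosen after their values were seen. GAPDH and ACTB had log2 fold changes of 0.78 (adjusted p = 0.0757) and 0.36 (0.204). Of 14 measured housekeeping genes, 0 were called (unadjusted p under 0.05 in 2 higher and 1 lower). Simulated arrays with 50 changed probe sets per fold size gave an adjusted p under 0.05 in limma for 0% (fold 1.5), 22% (fold 2), 76% (fold 4) and 82% (fold 8). No fold threshold was applied there. The simulated arrays were drawn independently, unlike the nearly identical arrays here. Fewer probe sets passed than in the data, which the small number of changed probe sets fixed in advance. These shares therefore do not give the power in these data. The number of arrays limits the precision. Alternatives changed the probe sets fitted, centring, normalization, variance model, fold threshold, replicate block and arrays included. Figures used matplotlib 3.10.9 in Python 3.11.15.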

Additional observations from a re-analysis of the deposited data

How the results depend on the processing

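The direction of VIM, KRT8, KRT18 and the bright probe set of KRT7 was the same under every alternative run. The count of the 12 probe sets called higher was 1, and it was 2 with 1 probe set a gene, with a mean of at least 5, with centring on housekeeping genes or with trend and robust fitting, each time KRT8 and VIM (adjusted p of VIM 0.0458, 0.0406, 0.00245 and 0.0451). It was 0 with all annotations in the fit, with probe sets free of a shared-sequence ending (which leave 5 of the 12, none of VIM, KRT8 or KRT18), with a replicate block, with the nearly identical arrays averaged or with MBD2 arrays 2 and 3 left out, 5 without control array 3 and MBD2 array 1, and 4 by the fold rule. With 1 array left out it ranged over 0 to 5. Centring moved the median change of all probe sets to -0.16, against -0.0047 as deposited.

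Over all probe sets 369 were higher and 402 lower, with 1 and 23 under the replicate block, 0 and 0 with averaging (2747 at an unadjusted p under 0.05 in limma) or without MBD2 arrays 2 and 3 (5291), 6380 and 4094 without control array 3 and MBD2 array 1, 1230 higher by the fold rule, and 2 to 3616 and 18 to 1924 with 1 array left out. Replicate numbers did not pair the arrays: deviations correlated at 0.21, -0.33 and 0.28 in same-numbered pairs, and MBD2 array 1 correlated best with control array 2 (0.35).

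Of the linkers, 2 were lower, and 1 with centring, trend and robust fitting, a fold of at least 2 or the fold rule. The count was 0 with the replicate block, averaging or MBD2 array 1 alone, and 0 to 3 with 1 array left out. Linkers called higher were 0, but 2 without control array 3 and MBD2 array 1 (0 to 2), and type III and IV genes and lamins 0, but 4 there (0 to 3). Of the epithelial genes 3 were lower, 5 without control array 3 and MBD2 array 1, and 0 with averaging or MBD2 array 1 alone (1 to 5). Of the mesenchymal genes 2 were higher, 1 with all annotations, with no shared-sequence ending, with centring or with quantile normalization, 0 with the block, averaging or MBD2 array 1 alone, and 5 by the fold rule (0 to 2). The difference of KRT8 and KRT18 turned to -0.41 without control array 3 and MBD2 array 1 (-0.11 to 0.71), and there the NES changes (0.055 and 0.25) and that of KRT19 (0.10) turned too, with ranges of -0.14 to 0.015, -0.25 to 0.19 and -0.16 to 0.061 when 1 array was left out. Those of VIM and KRT7, KRT8, KRT18 and KRT19 ranged over 1.87 to 3.24, 1.58 to 2.39, 1.64 to 2.93 and 3.29 to 4.65. Where no construction shows it, the cause was not tested.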

Other observations

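On control array 3, which had the lowest VIM of all arrays, POSTN and FN1 were also far below their values on the other 5 arrays. All genes given here were picked with their values known. CDH2, from the mesenchymal list, was far below its other values there too (7.72, beside 10.98 and 11.16 on control arrays 1 and 2). FAP, from the fibroblast list, also had its lowest value of all arrays there. COL1A1 (8.69, beside 9.35 and 9.07 on control arrays 1 and 2) and LUM (7.08, beside 7.48 and 8.03), which encode a collagen and a proteoglycan, did not stand apart on control array 3 in that way. POSTN, which encodes the matrix protein periostin, had log2 values of 14.03, 11.33 and 12.20 on MBD2 arrays 1, 2 and 3, against 12.18, 12.28 and 3.48 on control arrays 1, 2 and 3, and the last of these was near background. FN1, which encodes fibronectin, had 14.13, 12.82 and 13.75 on MBD2 arrays, against 12.94, 12.93 and 8.40 on control arrays. SNAI2, a repressor of epithelial genes, had 11.27, 11.06 and 11.27 on MBD2 arrays, against 9.71, 9.87 and 10.85 on control arrays, so that control array 3 was here the highest control. DCN, which encodes the proteoglycan decorin, had 12.57, 7.59 and 8.54 on MBD2 arrays, against 9.74, 9.60 and 8.43 on control arrays, and MBD2 array 1 stood far above the rest. POSTN, FN1, SNAI2, DCN, CDH2 and FAP were not called by limma (adjusted p of 0.578, 0.468, 0.178, 0.935, 0.468 and 0.884 in that order). KRT8 was likewise lowest on control array 3 (6.94), whereas KRT18 (9.18) and KRT7 (10.64) lay within the range of the other controls there.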
